A study of Mus musculus with 22 samples.

Results

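The T cell receptor beta variable segments (Trbv) of mouse were followed in RNA of transferred CD4+ T cells. The members were all genes of the count table whose symbol is Trbv and a number, which gave 35 of 55011 genes. GENCODE M21 annotates 22 of them as variable segments and 13 as variable pseudogenes. They lie on chromosome 6 of GRCm38 between base 40891229, where Trbv1 begins, and base 41558452 in Trbv31, and every one but Trbv31 is on the plus strand.

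A beta chain gene is assembled in each developing T cell by joining 1 variable, 1 diversity and 1 joining segment, and the joined segments are transcribed with a constant gene, Trbc1 or Trbc2. All descendants of a cell keep its variable segment, so the mix of Trbv RNA reads as a coarse record of which cells a population came from. The variable segment encodes most of the receptor's outer beta domain, including the first and second of the loops that touch peptide and MHC, while the third loop is made at the join. Trbv31 lies on the far side of the constant genes in the opposite orientation and joins by inversion.

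The 22 Smart-seq libraries were labelled C57BL/6, lymph nodes, and all carried the genotype label Scurfy - FOXP3 KO, including those of the wild-type cells. Scurfy mice lack working Foxp3, the factor that defines regulatory T cells (Treg). In the FOXP3 group, CD4+ T cells from lymph nodes of 10-day-old scurfy mice had been given human FOXP3 by a lentiviral vector that also carried LNGFR, a shortened nerve growth factor receptor used as a surface reporter. WT Treg were CD4+CD25+ CD45.1+ cells, and the LNGFR group was scurfy CD4+ T cells with the empty reporter vector. All recipients were scurfy mice that had cyclophosphamide at 50 mg/kg when 10 days old, cells on day 14, and human IL-2 at 1000 IU/g daily for 5 days and weekly after that. On day 50, a library was made from 1000 cells double-sorted from lymph nodes as LNGFR+ or CD45.1. Titles give a code such as F1 to 2 libraries each. The 2 were summed as 1 replicate, which left 5 FOXP3 codes (F1, F2, F5, N2, N3), 3 WT Treg codes (E2, G4, L1) and 3 LNGFR codes (G1, G2, G3). It is not labelled whether each code stands for 1 mouse, how many mice gave the cells, or whether donors were shared, so the spread between codes may in part be technical.

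Libraries held 332570 to 5453375 counts, of which 40 to 3352 fell on Trbv. The 3 weak libraries, both of E2 and the second of G1, had 84, 71 and 40 Trbv counts, against 1270 to 3352 in the other 19. Summed counts of 6 B-cell marker genes were 4579 CPM (counts per 1e6 counts) in FOXP3 code N3 and 1422 CPM in LNGFR code G1, against 77.9 to 519 CPM in the other 9 codes. The 5 CD4 T-cell markers (Cd3d, Cd3e, Cd3g, Trac, Cd4) were present in every group, with sums of 2234 to 3566 CPM in FOXP3, 798 to 3587 CPM in WT Treg and 3505 to 4951 CPM in LNGFR codes. In G1, which had the highest sum, Cd3d and Cd3g were at 1455 and 1775 CPM but Cd4 at 244 CPM. Cd4 was at 123 CPM in E2 and at 373 to 766 CPM in the remaining codes. Results that use E2, G1 or N3 are therefore given with and without them where that matters.

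Of the 35 members, 32 had at least 1 count and 13 had counts in all 22 libraries. Trbv8, Trbv11 and Trbv27, all pseudogenes, had none. The 13 pseudogenes held 145 of 40328 Trbv counts, or 0.360%, and Trbv24 alone held 120 of these. A read of 38 bases can be told apart by segment nearly everywhere, since 30 members share no run of 38 bases with another member. The exceptions are Trbv12-1, Trbv12-2, Trbv12-3, Trbv13-2 and Trbv13-3, whose counts could in part be exchanged.

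The last 60 bases of the 6 segments with the largest mean share, and of Trbv13-3, the nearest relative of Trbv13-2, show the end that enters the join. They are read from GENCODE M21 transcripts, GRCm38, plus strand, and the capitals mark the in-frame codon of the conserved cysteine where the third loop begins.
Trbv1, chr6:40891826-40891885: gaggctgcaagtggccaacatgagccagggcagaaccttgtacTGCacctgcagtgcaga
Trbv3, chr6:41048769-41048828: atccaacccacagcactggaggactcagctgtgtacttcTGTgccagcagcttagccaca
Trbv19, chr6:41178989-41179048: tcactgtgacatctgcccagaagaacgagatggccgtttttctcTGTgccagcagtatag
Trbv13-2, chr6:41121773-41121832: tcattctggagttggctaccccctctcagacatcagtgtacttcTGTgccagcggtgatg
Trbv12-2, chr6:41119305-41119364: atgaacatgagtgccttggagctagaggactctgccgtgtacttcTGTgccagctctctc
Trbv15, chr6:41141599-41141658: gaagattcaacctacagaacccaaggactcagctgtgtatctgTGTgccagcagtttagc
Trbv13-3, chr6:41130526-41130585: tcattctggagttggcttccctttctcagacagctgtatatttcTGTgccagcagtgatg
After the cysteine codon 12 to 18 germline bases remain before the end of the segment. All segments shown but Trbv1 have the same cysteine codon and the same 6 bases after it. The longest run that Trbv13-2 and Trbv13-3 share is 50 bases, within 1 exon of each, and a read that falls inside it cannot be placed on either segment.
Shared run, chr6:41121640-41121689 in Trbv13-2 and chr6:41130393-41130442 in Trbv13-3: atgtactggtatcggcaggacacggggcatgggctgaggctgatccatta

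In each library the share of a segment is its part of all Trbv counts. Averaged over the 11 codes, 6 segments made up 61.1% of Trbv counts. Trbv1, the segment farthest upstream, averaged 15.5%, Trbv3 12.2%, Trbv19 10.8%, Trbv13-2 8.01%, Trbv12-2 7.53% and Trbv15 7.07%. Shares of counts favour long segments, and Trbv19 with 566 exonic bases is longer than Trbv1 with 417 and Trbv13-2 with 340. Per exonic base the order over codes was Trbv1, Trbv3, Trbv13-2, Trbv12-2 and then Trbv19. Trbv16 followed at 6.94% of counts, the next 11 segments lay between 1.05% and 4.41%, and the other 17, those without a count included, were at 0.841% or less.

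**Figure D1:**
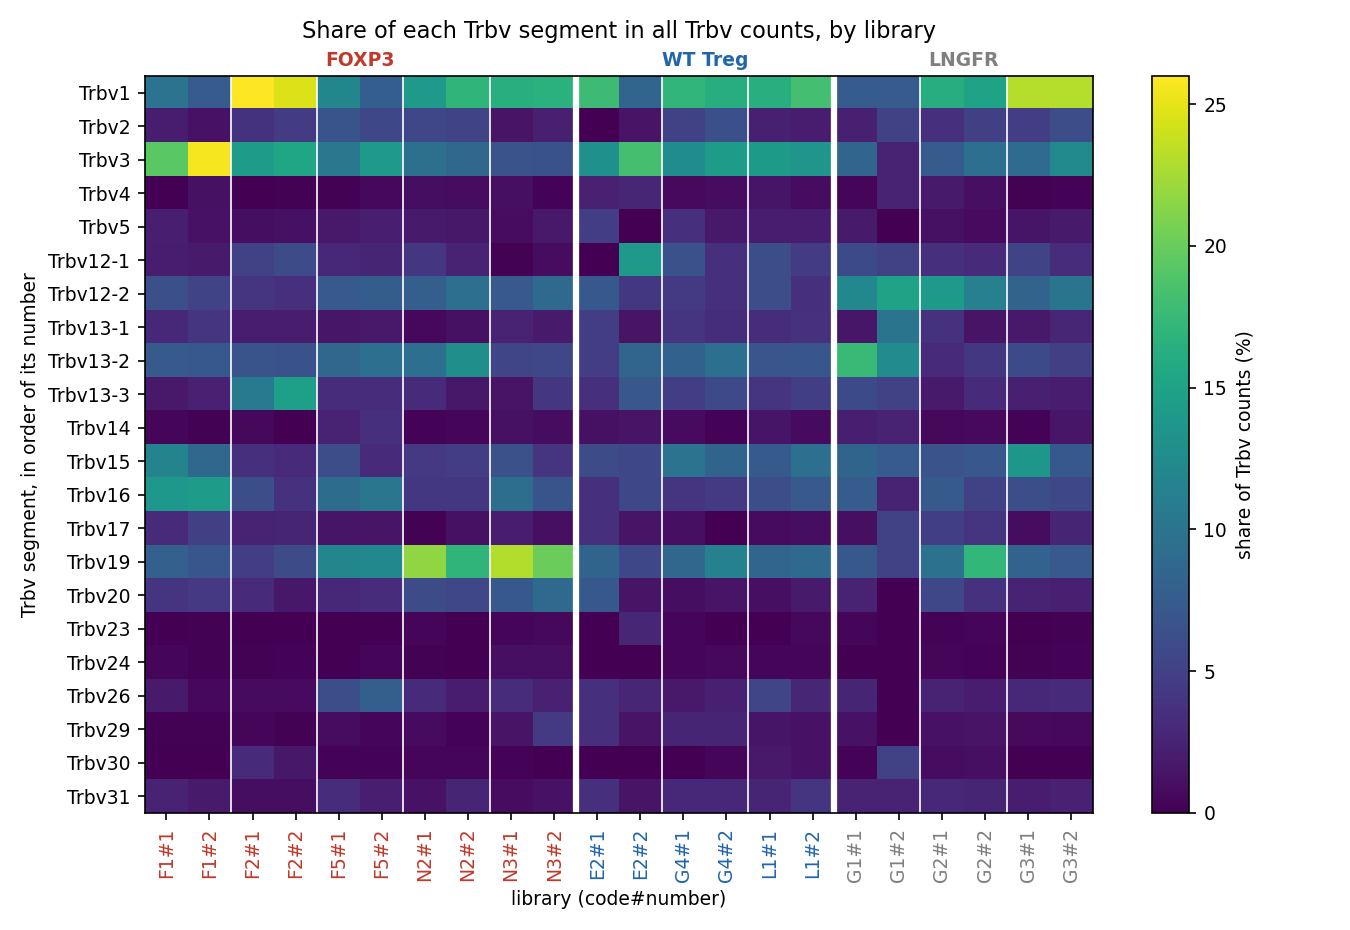
Share of Trbv counts (colour, %) of the 22 segments with a mean share of at least 0.3% over codes, down the page in order of their number, in each of the 22 libraries, with the 5 FOXP3 codes first, then 3 WT Treg and 3 LNGFR codes. Neighbouring columns of a code look alike, and bright cells sit in single codes, such as Trbv3 in F1 (19.4% and 25.6%) and Trbv1 in F2 (26.03% and 24.6%).

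No segment was the largest in all codes of any of the 3 groups. In FOXP3 cells Trbv3 led in F1 with 21.9% of Trbv counts (95% Wilson interval 20.7% to 23.0%), Trbv1 led in F2 with 25.2% (24.2% to 26.3%), and Trbv19 led in F5 with 12.0%, in N2 with 19.1% and in N3 with 21.6%. In WT Treg, Trbv3 led in E2 with 15.5% (10.6% to 22.01%), and Trbv1 led in G4 with 16.6% and in L1 with 17.3%. In LNGFR cells Trbv13-2 led in G1 with 17.4%, and Trbv1 led in G2 with 15.8% and in G3 with 23.1%. The intervals cover counting error only, because the reads carry no molecular identifiers. Per exonic base the leader changed in 3 FOXP3 codes, from Trbv19 to Trbv13-2 in F5 and to Trbv1 in N2 and N3.

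Trbv1 made up 9.002%, 25.2%, 10.3%, 15.6% and 16.5% of Trbv counts in FOXP3 codes F1, F2, F5, N2 and N3, against 13.5%, 16.6% and 17.3% in WT Treg codes E2, G4 and L1 and 7.61%, 15.8% and 23.1% in LNGFR codes G1, G2 and G3. The 3 groups overlapped, and the 3 WT Treg values lay inside the range of both other groups. Trbv19 made up 7.56%, 5.46%, 12.0%, 19.1% and 21.6% in the same FOXP3 codes, against 7.10%, 9.96% and 8.67% in WT Treg and 7.08%, 12.5% and 7.72% in LNGFR codes. N2 and N3 were the only codes above 12.5%. Trbv13-2, whose chain is known in invariant NKT cells, made up 7.24%, 6.62%, 8.95%, 11.4% and 5.44% in FOXP3, against 6.45%, 8.76% and 6.92% in WT Treg and 17.4%, 3.57% and 5.38% in LNGFR codes. G1 stood above all other codes. Of the invariant NKT markers Zbtb16 and Trav11, Trav11 was at 0 CPM in every code. Zbtb16 was at 1.29 CPM in G1, 5.97 CPM in N3, 3.46 CPM in E2 and 0 to 0.719 CPM in the other codes. The part of invariant NKT cells in Trbv13-2 usage was not tested.

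Several less abundant segments were high in 1 FOXP3 code, and they are named after their values were seen. Trbv13-3 made up 12.9% of Trbv counts in F2, against 2.01% to 3.32% in the other FOXP3 codes, 4.43% to 5.22% in WT Treg and 2.20% to 5.79% in LNGFR codes. Trbv16 made up 14.1% in F1, against 4.26% to 9.61% in the other FOXP3 codes, 4.12% to 6.76% in WT Treg and 5.92% to 7.50% in LNGFR codes. Trbv26 made up 6.92% in F5, against 0.781% to 2.85% in the other FOXP3 codes, 2.01% to 4.08% in WT Treg and 2.30% to 3.02% in LNGFR codes. In each case both libraries of the code were above every library of other codes that was not weak: 10.8% and 14.7% for Trbv13-3 in F2, 13.9% and 14.4% for Trbv16 in F1, and 6.29% and 7.87% for Trbv26 in F5.

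The 2 libraries of a code had like usage. Usage distance was taken as the sum of absolute differences in share divided by 2, which is 0% for equal usage and 100% for no shared segment. Without E2 and G1, the 2 libraries of a code were 8.92% to 13.9% apart (median 11.7%, 9 codes). They were 37.6% apart in E2 and 29.98% in G1, where the weak libraries held 40 to 84 Trbv counts. Each of the 18 libraries of the 9 other codes was nearest to the other library of its own code among those 18. The margin was small in 2 cases. The second library of LNGFR code G2 was 13.9% from its partner and 14.03% from the second library of FOXP3 code N2, and the first library of WT Treg code G4 was 10.3% from its partner and 10.5% from the second library of L1.

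The distance between 2 libraries of a code equals the sampling error of a limited number of equal, independent draws, here 208 to 624 draws per library (median 352, 9 codes), fewer than the 1270 to 3352 Trbv counts they held and fewer than the 1000 cells sorted. For E2 and G1 the number was 40.3 and 69.5. The spread between the 2 libraries of a code was thus above counting error in all 9 codes.

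**Figure D2:**
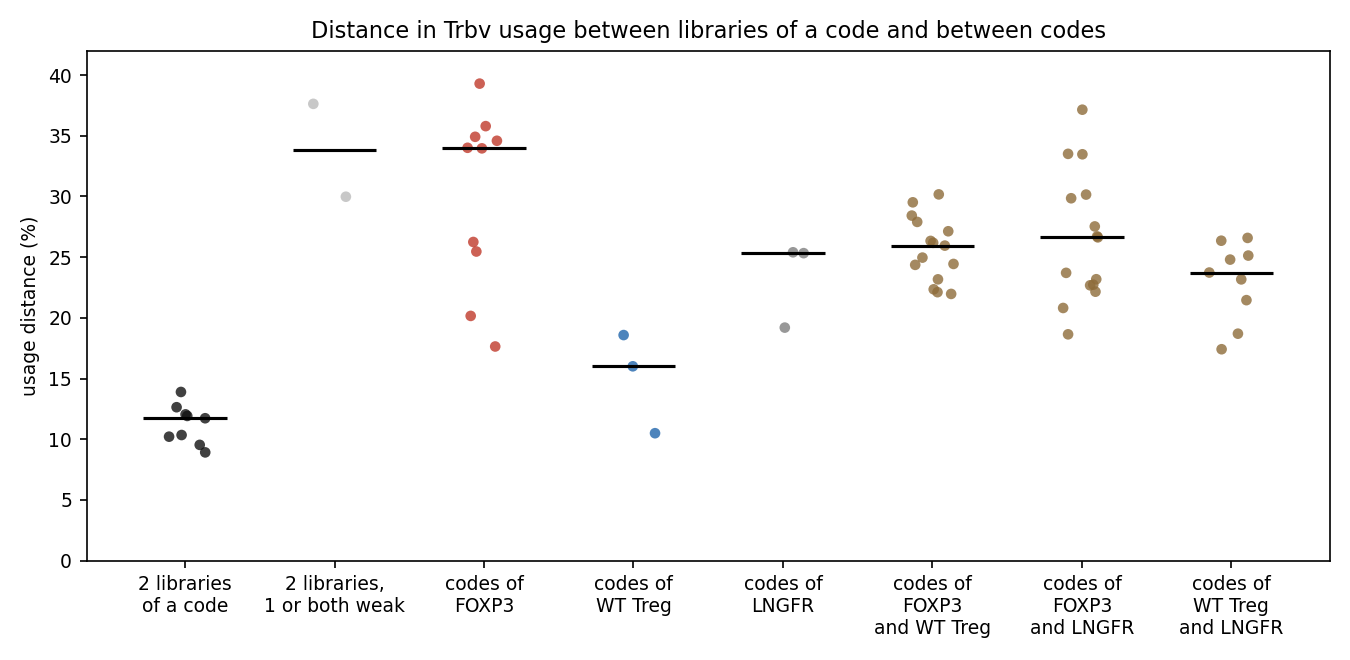
Usage distance (%) between the 2 libraries of a code, without and with weak libraries, between codes of FOXP3, WT Treg and LNGFR, and between codes of different groups. Points are pairs and lines are medians. The pairs of FOXP3 codes have a median of 33.98% and the 9 pairs of full libraries 11.7%. Codes are sums of 2 libraries and so hold more counts than the single libraries.

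Between codes, the median distance was largest among FOXP3 codes. The 10 pairs of FOXP3 codes were 17.6% to 39.3% apart (median 33.98%), the 3 pairs of WT Treg codes 10.5% to 18.6%, and the 3 pairs of LNGFR codes 19.2% to 25.4%. FOXP3 codes were 21.97% to 30.2% from WT Treg codes (median 25.9%) and 18.6% to 37.1% from LNGFR codes (median 26.6%). WT Treg codes were 17.4% to 26.6% from LNGFR codes. The closest pair of codes was G4 and L1 of WT Treg at 10.5%. Codes are sums of 2 libraries, so these distances are not on a par with those between single libraries. Single libraries of G4 were 10.5% to 14.5% from those of L1 (median 12.6%). The 2 libraries of G4 were 10.3% apart and those of L1 9.54%. Without E2, G1 and N3 the FOXP3 pairs kept their median of 33.98% (6 pairs), and 1 pair was left in WT Treg (10.5%) and 1 in LNGFR (19.2%). Pairs share codes and are not independent, so no test was made.

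Usage that set a code apart in its first library was read again in its second. For each of the 9 codes the segment was taken that stood farthest above the median of the other codes in first libraries. In the second library it was above the median of the others in 9 of 9 codes and the highest of all in 5 of 9. Those 5 were Trbv3 in F1 (25.6%, others at most 15.4%), Trbv1 in F2 (24.6%, at most 23.1%), Trbv26 in F5 (7.87%, at most 3.15%), Trbv19 in N3 (20.1%, at most 17.2%) and Trbv12-2 in G2 (11.3%, at most 10.1%). In the other 4 codes the rank was 3 of 9 for Trbv19 in FOXP3 code N2, 3 of 9 for Trbv15 in WT Treg code G4, 5 of 9 for Trbv3 in WT Treg code L1, and 4 of 9 for Trbv15 in LNGFR code G3.

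Evenness was summarised by Shannon entropy of the shares, given as the effective number of segments, which is the number of equally used segments with that entropy. It averaged 12.9 ± 1.27 in FOXP3 codes (SD, n = 5), 15.4 ± 1.41 in WT Treg codes (n = 3) and 14.1 ± 1.12 in LNGFR codes (n = 3). The single values were 12.3, 11.6, 15.001, 12.6 and 12.9 in F1, F2, F5, N2 and N3, against 17.0, 14.3 and 14.96 in E2, G4 and L1 and 14.5, 14.99 and 12.9 in G1, G2 and G3. In 4 of 5 FOXP3 codes the value was below every WT Treg code, and F5 overlapped with them. E2, the highest, rests on 155 Trbv counts. Without E2, G1 and N3 the means were 12.9 in FOXP3, 14.6 in WT Treg and 13.9 in LNGFR.

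Dominance was measured by the largest share and by the sum of the 3 largest. The largest share averaged 19.96% ± 4.96 in FOXP3, 16.5% ± 0.911 in WT Treg and 18.8% ± 3.87 in LNGFR codes (SD, n = 5, 3 and 3). The 3 largest together averaged 45.2% ± 6.86 in FOXP3, 38.7% ± 2.19 in WT Treg and 41.2% ± 3.16 in LNGFR codes. FOXP3 codes ranged from 34.1% in F5 to 53.1% in F2 on the second measure, which spans both other groups. On both measures the groups overlapped. Being scores over the chosen members, these values were not tested.

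**Figure D3:**
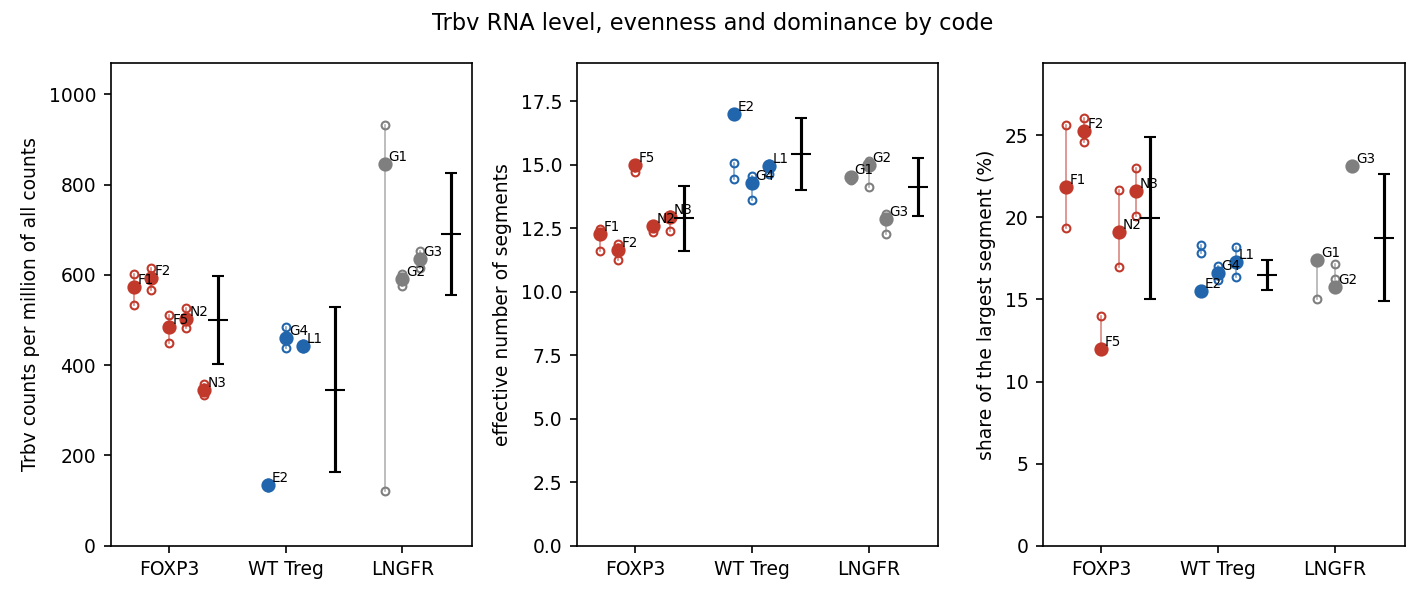
Trbv CPM, effective number of segments and share of the largest segment (%), for FOXP3, WT Treg and LNGFR. Filled points are codes, open points their libraries, bars the mean ± SD over codes. In the middle plot F5 lies at 15.001 and the other FOXP3 codes at 11.6 to 12.9, against 14.3 to 17.0 in WT Treg and 12.9 to 14.99 in LNGFR codes.

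Summed Trbv RNA was lowest in WT Treg. It averaged 499 ± 97.3 CPM in FOXP3 (SD, n = 5), 346 ± 184 CPM in WT Treg (n = 3) and 690 ± 136 CPM in LNGFR codes (n = 3). WT Treg had 134, 461 and 442 CPM in E2, G4 and L1, all below the 845, 592 and 634 CPM of LNGFR codes G1, G2 and G3. FOXP3 codes had 572, 593, 484, 502 and 346 CPM and overlapped with both. Without E2, G1 and N3 the means were 538 CPM in FOXP3, 452 CPM in WT Treg and 613 CPM in LNGFR. Trbc1 and Trbc2, the constant genes, summed to 1188 ± 227 CPM in FOXP3, 823 ± 465 CPM in WT Treg and 1521 ± 385 CPM in LNGFR. Without E2, G1 and N3 their means were 1285.2, 1091.9 and 1298.5 CPM. The ratio of Trbv to Trbc counts overlapped between the groups, at 0.422 ± 0.0417 in FOXP3, 0.432 ± 0.0335 in WT Treg and 0.458 ± 0.0285 in LNGFR. In such bulk samples fewer cells with a segment and less RNA per cell cannot be told apart. B-cell markers were high in N3, the FOXP3 code with the lowest Trbv CPM, but also in G1, the code with the highest, and their part in these levels was not tested.

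Each segment was then compared between groups by edgeR's quasi-likelihood test on all 15462 genes that passed the filter on low counts, with Benjamini-Hochberg adjustment over all of them. Of the 35 members 22 passed that filter. Trbv21, with 14 counts in all, and the 12 pseudogenes other than Trbv24 did not. All 3 comparisons share codes pairwise, so their results are not independent. For FOXP3 against LNGFR, 0 of 22 segments were called in either direction, where 0.168% of all tested genes were called higher and 0.375% lower. For WT Treg against LNGFR, 0 were called higher and 1 lower, Trbv12-2, where 0.627% of all genes were called higher and 0.673% lower. For FOXP3 against WT Treg, 0 were called, where 0.136% of all genes were called higher and 0.123% lower. At an unadjusted p under 0.05 there were 3, 4 and 4 of 22 segments in these comparisons, where 10.3%, 14.8% and 16.5% of all genes were. DESeq2 called 1, 2 and 1 segments, where it called 2.15%, 5.26% and 15.2% of all genes. With sample quality weights, limma called 1, 2 and 2 segments, where it called 6.78%, 5.61% and 6.89% of all genes. These counts of 1 to 4 segments are too few to set apart from those shares.

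Trbv12-2 (ENSMUSG00000094525.2, chromosome 6, bases 41118851 to 41119364) was the one segment called by edgeR in the fit of all 3 groups. Its level, in CPM of the TMM-scaled code, was 33.1, 21.6, 35.3, 43.8 and 26.3 in FOXP3 codes F1, F2, F5, N2 and N3, against 11.8, 17.5 and 20.2 in WT Treg codes E2, G4 and L1 and 108, 72.3 and 54.8 in LNGFR codes G1, G2 and G3. The 3 groups did not overlap, with LNGFR highest and WT Treg lowest. WT Treg fell below LNGFR by a log2 fold change of -2.19 ± 0.35 (SE), with an edgeR adjusted p of 0.00856. The log2 fold change of FOXP3 over LNGFR was -1.29 ± 0.29, with an edgeR adjusted p of 0.0732, and that of FOXP3 over WT Treg was 0.90 ± 0.32, with an edgeR adjusted p of 0.166. The call rested on each of G2, G4 and L1, since without G2 the edgeR adjusted p was 0.0636, without G4 0.0739 and without L1 0.0671. With the Trbv total of each code as its library size, the fold change is one of usage in place of level. Its log2 value was -1.28 (edgeR adjusted p = 0.0755). That fit scaled and adjusted all 15462 genes in this way, so the adjusted p is not one over the 22 segments alone.

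As a share of Trbv counts, Trbv12-2 made up 5.90%, 3.77%, 7.39%, 8.72% and 8.03% in FOXP3 codes, against 5.81%, 3.94% and 4.85% in WT Treg and 12.2%, 13.0% and 9.15% in LNGFR codes. The LNGFR codes were above all others, and FOXP3 overlapped with WT Treg. The value in E2 rests on 9 counts. Up to 23 of the 348 windows of 38 bases in Trbv12-2 also occur in Trbv12-1 or Trbv12-3. Trbv12-3 had 2 counts in all, and Trbv12-1 made up 0.498% to 5.55% in FOXP3, 5.07% to 6.45% in WT Treg and 3.46% to 5.86% in LNGFR codes.

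**Figure D4:**
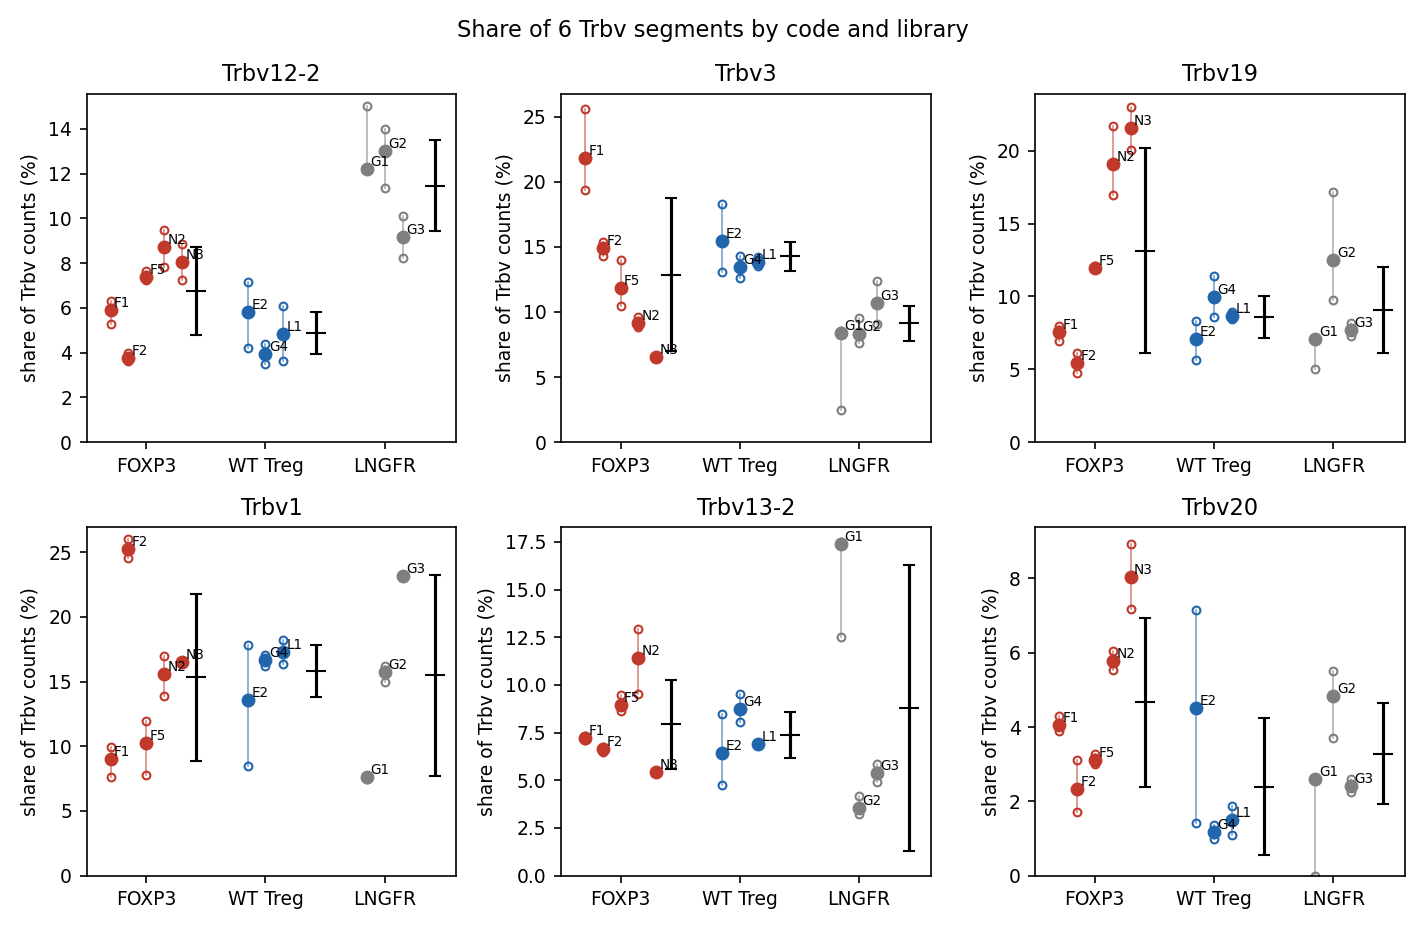
Share of Trbv counts (%) of 6 segments in FOXP3, WT Treg and LNGFR codes (filled points), their libraries (open points) and the mean ± SD over codes. Trbv12-2 lies at 9.15% to 13.0% in LNGFR codes and at most 8.72% elsewhere, while Trbv1 and Trbv13-2 vary more within a group than between groups.

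Trbv20, named after its values were seen, was nearest to the threshold after Trbv12-2. It had 22.8, 13.4, 14.9, 28.9 and 26.3 TMM-scaled CPM in FOXP3 codes F1, F2, F5, N2 and N3, against 9.21, 5.18 and 6.26 in WT Treg codes E2, G4 and L1 and 22.9, 26.9 and 14.5 in LNGFR codes G1, G2 and G3. WT Treg lay below both other groups, which overlapped. WT Treg over LNGFR gave a log2 fold change of -1.74 ± 0.40 (SE) with an edgeR adjusted p of 0.0532, and FOXP3 over WT Treg gave 1.73 ± 0.37 with an edgeR adjusted p of 0.0736. Other settings called Trbv20 in both comparisons, where the adjusted p was 0.00750 and 0.00404 by DESeq2, 0.0160 and 0.0111 by limma, and 0.0190 and 0.00122 by edgeR with no filter on low counts. Without E2, G1 and N3 the edgeR adjusted p was 0.0215 and 0.0163, where 7.66% and 7.42% of all genes were called. With the Trbv total as library size, again adjusted over all genes tested, it was 0.355 and 0.235. By share, E2 with 4.52% on 7 counts reached into the range of the other groups.

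Over the 22 segments tested, the median log2 fold change was -0.49 in FOXP3 over LNGFR, where all genes had -0.02. It was -0.66 in WT Treg over LNGFR, where all genes had 0.08, and 0.31 in FOXP3 over WT Treg, where all genes had 0.01. These medians include E2 and G1, the codes with the lowest and highest summed Trbv CPM (134 and 845). Codes of FOXP3 and LNGFR did not overlap in TMM-scaled CPM for 2 segments, Trbv12-2 and Trbv31, both lower in FOXP3, where 4.67% of all tested genes were lower without overlap and 4.35% higher. WT Treg lay below LNGFR without overlap for 5 segments, Trbv12-2, Trbv16, Trbv17, Trbv19 and Trbv20, where the shares over all genes were 8.82% lower and 7.80% higher. FOXP3 lay above WT Treg without overlap for Trbv12-2 and Trbv20, where the shares were 6.12% higher and 6.25% lower.

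Overlap of codes was also read by share of Trbv counts. Among segments with a mean share of at least 1% in either group, 1 of 18 did not overlap between FOXP3 and LNGFR (Trbv12-2), 5 of 19 between WT Treg and LNGFR, and 1 of 18 between FOXP3 and WT Treg (Trbv5). These counts have no share over all genes beside them, because the measure exists for Trbv only. The difference between them was not tested, and 5 codes of FOXP3 have more room to overlap than 3 of WT Treg. Trbv3 made up 15.5%, 13.4% and 13.9% in WT Treg codes E2, G4 and L1, against 8.41%, 8.30% and 10.7% in LNGFR codes G1, G2 and G3. The FOXP3 codes, with 21.9%, 14.9%, 11.8%, 9.18% and 6.57% in F1, F2, F5, N2 and N3, spanned both groups. In CPM the Trbv3 difference was not called (log2 fold change of WT Treg over LNGFR -0.27 ± 0.50, edgeR adjusted p = 0.847), and WT Treg had the lower Trbv total.

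Trbv13-1 averaged 3.46% ± 0.215 in WT Treg and 2.29% ± 0.551 in LNGFR codes (SD, n = 3 each). Trbv5 averaged 1.59% ± 0.367 in FOXP3 (n = 5), 2.38% ± 0.381 in WT Treg and 1.52% ± 0.431 in LNGFR codes (n = 3 each). Trbv29 averaged 2.23% ± 0.717 in WT Treg and 1.08% ± 0.430 in LNGFR codes. All 3 were thus higher in WT Treg than in LNGFR by share without overlap, and none was called by edgeR (adjusted p = 0.900, 0.830 and 0.969). The E2 values of Trbv13-1, Trbv5 and Trbv29 rest on only 5, 4 and 4 counts. In the 2 libraries of E2 the shares were 4.76% and 1.41%, 4.76% and 0%, and 3.57% and 1.41%. Trbv15 averaged 5.72% ± 2.79 in FOXP3, 7.81% ± 1.77 in WT Treg and 8.58% ± 1.87 in LNGFR codes, and the groups overlapped.

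The other beta chain parts and the receptor's partners showed no call. Of 8 genes of the receptor complex (Trac, Trbc1, Trbc2, Cd3d, Cd3e, Cd3g, Cd247, Cd4), 0 passed in any of the 3 comparisons by edgeR. An unadjusted p under 0.05 was found for 1, 1 and 0 of the 8, beside the 10.3%, 14.8% and 16.5% of all genes. All 8 had a fold change below 0 for WT Treg against LNGFR, with a median of -0.67 on the log2 scale, where 6971 of 15462 genes were below 0. In TMM-scaled CPM, E2 was the lowest of all codes for all 8. Without E2 and G1, WT Treg codes lay above LNGFR codes for Cd3e, Cd247 and Trac. They lay below for Cd4, Trbc1 and Trbc2, and overlapped for Cd3d and Cd3g. Cd3g, a signalling chain of the complex, had the lowest value for WT Treg against LNGFR at -1.10 ± 0.48 (SE, edgeR adjusted p = 0.310), beside -0.90 ± 0.41 in FOXP3 over LNGFR (edgeR adjusted p = 0.483). Both rest largely on G1, since Cd3g had 1856, 675 and 736 TMM-scaled CPM in LNGFR codes G1, G2 and G3. It had 241, 717 and 563 in WT Treg codes E2, G4 and L1, and 398 to 702 in FOXP3 codes. Of 15 joining and diversity segments tested, 0 were called and 0 had an unadjusted p under 0.05. Joining segments had 3276 counts in all, against 43313 for Trbc1 and 50214 for Trbc2.

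Constant gene use overlapped between the groups. Trbc1 made up 47.7% ± 5.58 of Trbc counts in FOXP3, 47.5% ± 3.31 in WT Treg and 44.3% ± 4.65 in LNGFR codes. It was lowest in F2 at 38.4%. Of the joining segment counts, Trbj1 segments made up 59.6% ± 5.39 in FOXP3, 65.4% ± 10.9 in WT Treg and 53.9% ± 11.9 in LNGFR codes, with 18 counts behind the value of E2. In the recombination list (Rag1, Rag2, Dntt, Ptcra, Cd1d1) only Cd1d1 passed the filter and it was not called. Of the gamma-delta chain genes 3 were tested and 0 called by edgeR, and 2, 0 and 1 of the 3 had an unadjusted p under 0.05, beside the same shares of all genes. CD8 T-cell markers (Cd8a, Cd8b1) summed to 4.24 to 9.54 CPM in FOXP3, 7.79 to 35.3 CPM in WT Treg and 9.26 to 15.2 CPM in LNGFR codes, and their part in Trbv usage was not tested. In WT Treg codes G4 and L1 the sum was nearly all Cd8b1, at 35.1 and 26.4 CPM, with Cd8a at 0.168 and 0.423 CPM. Cd8a was at most 3.46 CPM in any code, in E2.

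Foxp3 itself, read through the mouse gene, was 222, 324, 220, 232 and 171 CPM in FOXP3 codes F1, F2, F5, N2 and N3, against 463, 1644 and 1727 CPM in WT Treg codes E2, G4 and L1 and 40.8, 77.4 and 151 CPM in LNGFR codes G1, G2 and G3. The groups did not overlap. Counts of the human transgene were not used here, and whether its reads also counted on the mouse gene was not tested.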

How the data were processed

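Gene counts of 22 libraries were taken as the authors deposited them, as raw counts per gene symbol. The build was mm10 (GRCm38) and the tools were STAR 2.7.3a, Subread 2.0.0 and featureCounts, as the submitters' processing notes list them. What annotation, strand setting and rule for reads with several matches they used is not given in the sources used here. Libraries of a code were summed, and Trbv shares, Shannon entropy (natural log), largest share and usage distance were computed with Python 3.11.15. The test was edgeR 4.0.16 (TMM, filterByExpr, robust quasi-likelihood, 3 groups in 1 fit, R 4.3.3), with adjusted p under 0.05, and was tested on simulated data. A standard error is the fold change divided by the root of F. DESeq2 1.42.0 and limma 3.58.1 were alternatives. A count of 0 allows 3 counts if counts are independent draws. Named segments were the 6 with the highest mean share, leaders of a code, called segments and up to 3 non-overlapping ones per comparison, and others were chosen after their values were seen. Members and gene lists were chosen with earlier results of these data known. All 35 members matched GENCODE M21 and RefSeq by symbol.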

Additional observations from a re-analysis of the deposited data

Results flagged for a closer look

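Of 13 sets of values checked for a code far from the rest of its group, 1 was picked out, where chance picks out about 1 set in 20. Trbv15 made up 10.53% of Trbv counts in FOXP3 code F1, against 3.32%, 4.95%, 4.57% and 5.21% in F2, F5, N2 and N3. Its gap to the next code was large for a group of 5. Both libraries of F1 were high, with 11.7% and 8.70%, and F1 lay near the WT Treg codes (5.81% to 9.19%) and LNGFR codes (6.83% to 10.5%).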

How the results depend on the processing

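No called result changed direction. The share of all genes called stands in brackets. Segments called for FOXP3 against LNGFR were 0 of 22, and 1 (Trbv12-2) under DESeq2 (2.15%), limma (6.78%), without the 3 weak libraries (1.63%) or without codes E2, G1 and N3 (10.7%). For WT Treg against LNGFR the count was 1, and 2 (Trbv12-2, Trbv20) under DESeq2 (5.26%), limma (5.61%), without the weak libraries (2.07%) or without E2, G1 and N3 (7.66%), 3 with no filter (2.13%), 0 with only the 2 groups in the fit (0.436%) or the Trbv total as library size (2.42%), and 0 to 2 when each code was left out in turn (0.195% to 1.86%). For FOXP3 against WT Treg it was 0, and 1 (Trbv20) under DESeq2 (15.2%), 2 under limma (6.89%), with no filter (7.71%) or without E2, G1 and N3 (7.42%), and 0 to 1 when each code was left out in turn. The 1 was Trbv20 without G4 (6.39%), and leaving out any other code gave 0 (0.0211% to 0.411%). The cause was not tested. The difference in summed Trbv CPM was -191 for FOXP3 minus LNGFR and -344 for WT Treg minus LNGFR, and -75.2 and -161 without E2, G1 and N3. The median distance between libraries of a code was 11.9%, and 37.5% when all were thinned to 40 counts. Entropy differences kept their sign in all 15, 13 and 15 alternatives, and the largest share for FOXP3 minus LNGFR in 11 of 15 (-2.05 to 3.38 percentage points). No paired analysis was possible because the groups share no code.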

Other observations

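Some rare segments, singled out after their values were seen, were present in few codes. Trbv30 made up 2.39% of Trbv counts in FOXP3 code F2 (3.22% and 1.70% in its libraries) and 1.53% in WT Treg code L1 (1.75% and 1.32%), and at most 0.922% in each other code. It had 0 of 4777 Trbv counts in FOXP3 code F1. If each count were an independent draw, that allows a share of up to 0.0628%. The 2 libraries of F1 differed like 268 equal draws each, so the limit is wider. Trbv14 made up 3.01% in FOXP3 code F5 (2.63% and 3.57%), against 0.272% to 1.06% in the other FOXP3 codes, 0.511% to 1.29% in WT Treg and 0.576% to 2.17% in LNGFR codes. Trbv29 had 1.35% and 4.47% in the 2 libraries of FOXP3 code N3, the widest it was in any code without weak libraries. Without E2, G1 and N3, Trbv29 was lower in FOXP3 than in WT Treg, with a log2 fold change of -2.14 ± 0.49 (SE). The edgeR adjusted p was 0.0204, where 7.42% of all genes were called. With all codes the log2 fold change was -1.19 ± 0.67 (edgeR adjusted p = 0.413). N3, which the first setting leaves out, had the most Trbv29 of the FOXP3 codes. It had 9.36 TMM-scaled CPM, against 0.939 to 3.23 in the other FOXP3 codes and 5.26 to 12.0 in WT Treg codes.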
